A study of Ovis aries with 12 samples.

Results

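Pulmonary artery endothelial cell libraries of lambs with persistent pulmonary hypertension of the newborn (PPHN) were divided into 2 sets chosen by the measured level of 1 miRNA entry, gga-miR-1692, and the sets were compared across all miRNA entries. PPHN 8, PPHN 11 and PPHN 12 held this entry at 100 CPM or more. PPHN 7, PPHN 9 and PPHN 10 held it below that level. These 6 libraries are all the PPHN libraries of a series of 12, and the other 6 are controls, used here to show where sham-operated lambs lie for each difference. CPM is the count of an entry divided by the total over the 470 entries of its library, times 1e+06. Because measured values chose the sets, differences between them are described and carry no test.

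The study profiled small RNA in cultured lamb cells to compare PPHN with control. In the PPHN lambs the ductus arteriosus, the fetal vessel that lets blood bypass the lung, was tied off in utero at about 125 days of gestation and stayed tied for 5 to 7 days. Controls had sham surgery. In both groups the cells came from the main pulmonary artery, were purified with magnetic beads against CD31, an endothelial surface protein, were grown in serum-containing medium and were used between passages 2 and 5. No drug, transgene or mutation is given for either group, and separate lambs are not stated for the libraries.

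MicroRNAs (miRNAs) are short RNAs that are cut from hairpin precursors, load into Argonaute proteins and repress mRNAs that pair with their seed. In the vessel wall miR-126 marks endothelial cells and miR-143 marks contractile smooth muscle cells. Short fragments of ribosomal RNA, small nuclear RNA and repeats can also be counted under miRNA names, because several names in the database coincide with such sequences. The entries carry names from many species, where the prefix oar is sheep, bta cow, hsa human, ssc pig, gga chicken, mmu mouse, rno rat, cgr hamster and hhi halibut.

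Counts per library over the listed entries ran from 2250077 in PPHN 11 to 17740932 in PPHN 7. PPHN 8, 11 and 12 had 2655849, 2250077 and 4819828 counts, the lowest totals among the PPHN libraries. PPHN 7, 9 and 10 had 17740932, 10344775 and 5148866, and the controls 4101316 to 11171643. Between 3 and 25 entries had no count in PPHN 8, 11 and 12, between 0 and 17 in PPHN 7, 9 and 10, and between 1 and 9 in the controls. A floor of 3 counts corresponds to 0.169 CPM in PPHN 7 and to 1.33 CPM in PPHN 11. The part that depth plays in the differences was not tested.

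The entry that chose the sets, gga-miR-1692, stood at 289.6, 309 and 177 CPM in PPHN 8, 11 and 12. It stood at 32.9, 32.8 and 45.4 CPM in PPHN 7, 9 and 10, and between 26.5 and 56.3 CPM in the controls, with a median of 38.9. The library just inside the limit was PPHN 12, whose 851 counts give an exact 95% interval of 165 to 189 CPM, and the PPHN library just outside was PPHN 10, at 39.8 to 51.7 CPM. Intervals cover counting error only. The other entries proposed as markers of the division, ssc-miR-1285 and bta-miR-2340, followed the same split by description: ssc-miR-1285 stood at 277, 185 and 151 CPM in PPHN 8, 11 and 12, and at 42.2, 27.6 and 28.6 CPM in PPHN 7, 9 and 10.

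Profiles as a whole did not divide the PPHN libraries along the same line, so the sets are called here by their library numbers rather than as kinds of culture. The distance between a pair of libraries was taken as the median absolute log2 difference over the 322 entries with a mean of at least 10 CPM, after TMM scaling, a scaling that centres each library on the bulk of its entries. PPHN 7, 9 and 10 lay close together, at distances of 0.36 to 0.41. PPHN 8 and PPHN 11 lay 0.50 apart. PPHN 12 lay 0.62 from PPHN 8 and 0.68 from PPHN 11, and nearer to PPHN 7, 9 and 10, at 0.48, 0.49 and 0.46. Its nearest library of all was control 3, at 0.37. PPHN 8 lay 0.96, 0.72 and 0.70 from PPHN 7, 9 and 10, and PPHN 11 lay 0.76, 0.83 and 0.72 from them. Control pairs ranged from 0.42 to 0.84, so the sets were no farther apart than some pairs of controls except between PPHN 8 and PPHN 7.

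**Figure D1:**
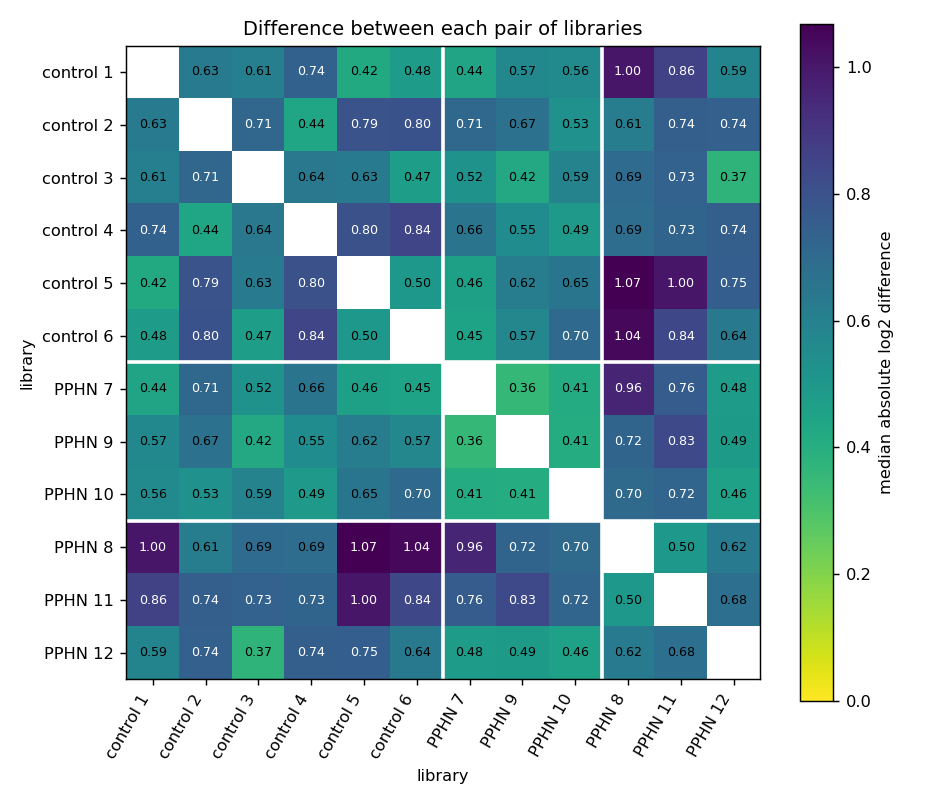
Median absolute log2 difference of TMM-scaled CPM between each pair of libraries, over 322 entries; both axes list the libraries, white lines part the controls, PPHN 7, 9 and 10, and PPHN 8, 11 and 12, and colour gives the distance. PPHN 12 sits at 0.46 to 0.49 from PPHN 7, 9 and 10 but at 0.62 and 0.68 from PPHN 8 and 11, and at 0.37 from control 3.

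Of the 470 entries, 66 (14.0%) were wholly higher in PPHN 8, 11 and 12, with every one of the 3 above every one of PPHN 7, 9 and 10, and 17 (3.62%) were wholly lower. The remaining 387 (82.3%) overlapped. After TMM scaling the split was 46 wholly higher (9.79%) and 39 wholly lower (8.30%). All 46 of those higher entries were among the 66, and 15 of the 17 lower entries were retained. The median log2 difference over all entries, middle library of one set minus middle library of the other, was 0.14 by column total and −0.08 after TMM scaling. Gaps were mostly narrow: the ratio of the lowest value of the upper set to the highest value of the lower set had a median of 1.26 among the higher entries and 1.17 among the lower ones. It reached 2-fold for 14 higher entries and for 0 lower entries. Sheep names made up 92 of all 470 entries but 7 of the 66 higher and 2 of the 17 lower.

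The controls parted the 66 higher entries. For 16 entries (3.40% of all) PPHN 8, 11 and 12 stood above all 9 other libraries. For 3 entries, oar-miR-30b, bta-miR-2447 and mdo-miR-455-3p, all 6 controls lay above PPHN 7, 9 and 10. For oar-miR-30b they lay above PPHN 8, 11 and 12 as well. In the other 47 the controls were spread over both levels. Control 2 was at least as high as the lowest of PPHN 8, 11 and 12 in 37 of the 66 entries and control 4 in 31, against 10 for control 1 and 13 for control 6. Control 1 lay no higher than PPHN 7, 9 and 10 in 49 of the 66. After TMM scaling control 2 reached the upper level in 14 of 46 entries and control 4 in 15, against 14, 10, 6 and 5 for controls 3, 6, 1 and 5.

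**Figure D2:**
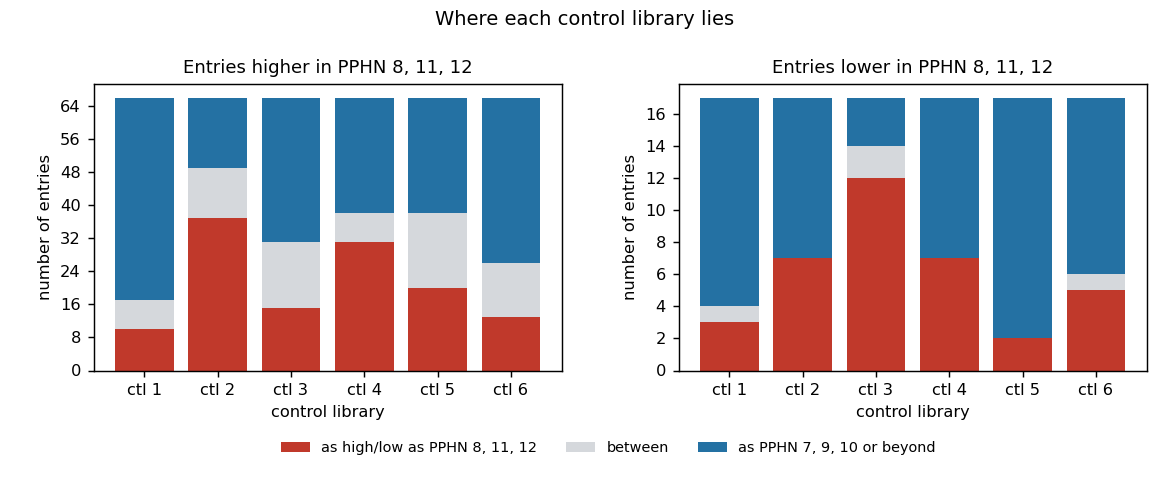
Number of entries (vertical axes) for which each control library (horizontal axes) was as high or low as PPHN 8, 11 and 12 (red), in between (grey) or at the level of PPHN 7, 9 and 10 or beyond (blue); the left panel counts the 66 higher entries and the right panel the 17 lower entries. By column total control 2 reaches the red level in 37 of the 66 and control 1 in 10; after TMM scaling, not drawn, these counts are 14 and 6 of 46.

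The 16 entries above all 9 other libraries together took 2.05% to 11.7% of the counts in PPHN 8, 11 and 12, and 0.221% to 0.916% in the other libraries. Most of this was bta-miR-2340, a cow entry, at 58489, 104156 and 12196 CPM in PPHN 8, 11 and 12 against 3707, 2509 and 1686 CPM in PPHN 7, 9 and 10. Its controls ran from 1676 to 8185 CPM, with a median of 3834. PPHN 8 and 11 were far above all others, while PPHN 12 was 1.49 times the highest control. Leaving bta-miR-2340 out of the column total gave 76 wholly higher and 15 wholly lower entries, and 19 above all 9 others, and these held all 16. None of the 16 has a sheep name. PPHN 12 was the lowest of its set in 15 of the 16 entries, and PPHN 8 the highest in 9 and PPHN 11 in 7.

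A pair of these entries carries the name miR-7641, whose human sequence is known to lie within ribosomal RNA. The entry hhi-miR-7641 stood at 8905, 9507 and 6886 CPM in PPHN 8, 11 and 12. In PPHN 7, 9 and 10 it stood at 274, 18.1 and 796 CPM, and the controls lay between 283 and 2693 CPM with a median of 823. The sets stood apart by 8.65-fold at their nearest values, and PPHN 9 was the lowest of the 12 libraries. Human-named hsa-miR-7641 was less abundant and also separated the sets, at 98.7, 60.9 and 56.8 CPM against 8.51, 4.83 and 9.32 CPM, with the controls at 3.22 to 22.1 CPM. Both entries may share reads, since their names belong to the same family.

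The widest gap of all was that of mmu-miR-5112, a mouse-named entry, at 65.5, 72.9 and 45.2 CPM in PPHN 8, 11 and 12, with no count in PPHN 7 or 9 and 2.91 CPM in PPHN 10, a gap of 15.5-fold. Controls held it at 1.22 to 9.09 CPM. For hsa-miR-4448 the values were 919, 1724 and 487 CPM against 62.5, 49.6 and 39.2 CPM, a gap of 7.79-fold, with controls at 52.5 to 173 CPM. For both entries PPHN 8, 11 and 12 stood clear of the other PPHN libraries and of every control.

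The entry prd-miR-5960-5p was split within PPHN 7, 9 and 10 as well. It stood at 247, 198 and 163 CPM in PPHN 8, 11 and 12, at 36.9 CPM in PPHN 10, at 0.113 CPM in PPHN 7 and at 0 in PPHN 9. The controls lay at 6.42 to 35.9 CPM, with a median of 18.8. PPHN 7 and 9 were thus below every control, and PPHN 10 was near the highest one. The last of the 12 named by gap, mmu-miR-6238, was at 59.5, 19.6 and 20.5 CPM against 7.1, 5.41 and 6.8 CPM. Its highest control, at 19.5 CPM, nearly touched PPHN 11, and after TMM scaling the entry no longer stood above all 9 others.

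Human miR-1273 loci lie in Alu repeats, and an entry of that name, hsa-miR-1273g-3p, was among the 16. Whether its reads in these lamb cells come from repeats was not tested. That entry and hsa-miR-1303 were picked for description once their values were known. The hamster-named cgr-miR-1285 stood at 102, 113 and 66 CPM in PPHN 8, 11 and 12, and at 14.8, 9.28 and 13.6 CPM in PPHN 7, 9 and 10, with controls at 11 to 41.7 CPM. Its gap of 4.47-fold exceeded the 3.57-fold of ssc-miR-1285, the pig-named entry of the same family. For hsa-miR-1273g-3p the values were 256, 86.2 and 47.3 CPM against 26.6, 14.5 and 19.4 CPM, and the highest control reached 45.6 CPM. For hsa-miR-1303 they were 367, 279 and 144 CPM against 77.3, 38.4 and 50.9 CPM, with controls up to 94.4 CPM. PPHN 8 was the highest library for ssc-miR-1285, hsa-miR-1273g-3p and hsa-miR-1303, and PPHN 12 the lowest of its set for all 4 entries.

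Across the 6 PPHN libraries the entries most like gga-miR-1692, by Pearson's r of log2(CPM + 1), were cgr-miR-1285 (0.990), mmu-miR-5112 (0.986), hsa-miR-7641 (0.978), hsa-miR-4448 (0.976) and ssc-miR-1285 (0.966). The 6 libraries fall into the chosen sets, so these values describe the same division and have no test. The points share library totals.

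**Figure D3:**
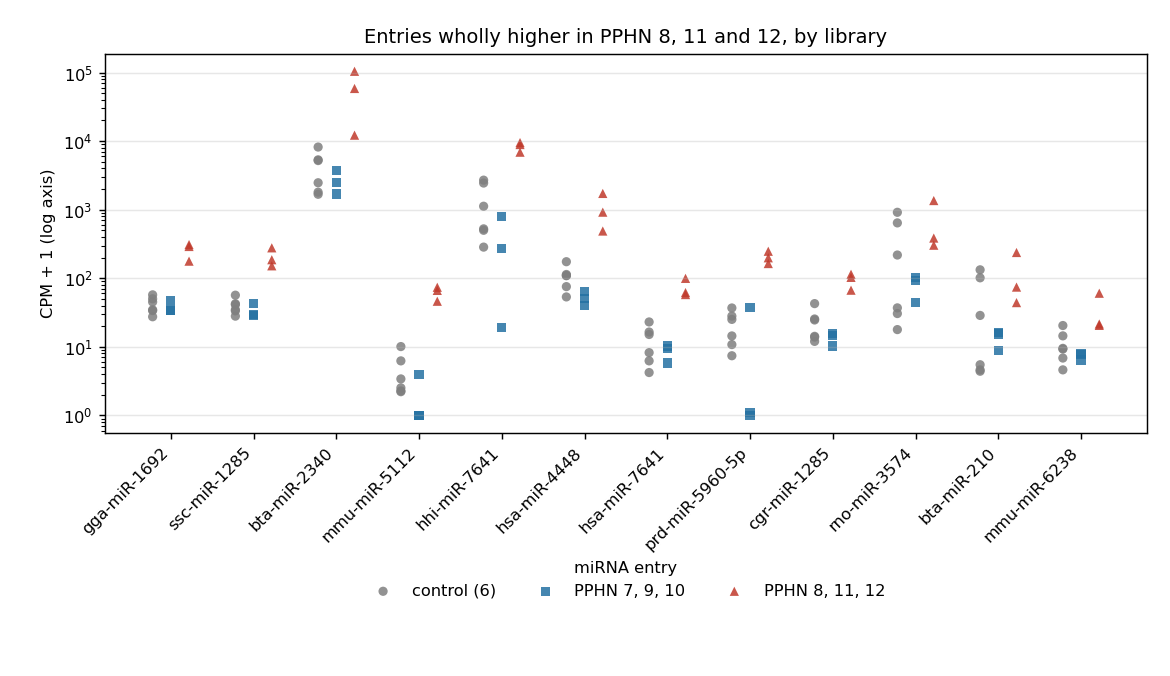
CPM + 1 on a log axis for the 12 entries with the largest gap in favour of PPHN 8, 11 and 12 (triangles), with PPHN 7, 9 and 10 as squares and the 6 controls as circles, 1 point per library. The controls reach the triangles for rno-miR-3574 and bta-miR-210, at up to 915 and 132 CPM, and stay below them for the other 10.

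Among entries with a known role, miR-210 is induced by hypoxia-inducible factor. The entry bta-miR-210 was at 236, 73.3 and 43.2 CPM in PPHN 8, 11 and 12 and at 15.1, 7.93 and 14.4 CPM in PPHN 7, 9 and 10, a gap of 2.86-fold. The other arm, mmu-miR-210-5p, was at 209, 35.6 and 49.6 CPM against 19.7, 8.41 and 16.5 CPM. Controls covered a wide range: bta-miR-210 was at 100.5 CPM in control 2 and 132 CPM in control 4, above PPHN 11 and 12, but at 3.41 to 4.49 CPM in controls 1, 5 and 6. All PPHN libraries except PPHN 8 lay inside this control range. Rat-named rno-miR-3574 showed the same layout, with 1357, 384 and 302 CPM against 92.3, 43.9 and 102 CPM, and with 640.5 and 915 CPM in controls 2 and 4.

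The miR-34 family is induced by p53. The entry hsa-miR-34c-5p, picked once its values were known, stood at 116, 150.2 and 56.2 CPM in PPHN 8, 11 and 12, against 27.1, 26.9 and 31.1 CPM in PPHN 7, 9 and 10. Controls lay at 4.24 to 33.2 CPM, with control 5 lowest. It stood above all 9 other libraries by 1.69-fold. Its relative gga-miR-34a-5p was at 329, 164 and 217 CPM against 121, 103 and 129 CPM, but 2 controls were at or above PPHN 11. Of the 5 entries in the p53-induced list, 2 were wholly higher and 0 wholly lower, beside 66 and 17 of all 470. A further entry above all 9 others, cgr-miR-874, was low throughout, at 21.1, 16.4 and 11.6 CPM against 7.16, 9.18 and 9.13 CPM, with controls at 3.21 to 8.32 CPM. Its values in PPHN 8, 11 and 12 rest on 56, 37 and 56 counts. The last 2 of the 16 were as low: bta-miR-2285af was at 11.3, 11.1 and 10.2 CPM against 8, 5.22 and 6.8 CPM. The entry hcmv-miR-US25-1-3p, which carries the name of a cytomegalovirus miRNA, was at 22.6, 12 and 11 CPM against 4.85, 4.06 and 4.08 CPM, with controls up to 7.07 CPM. In PPHN 8, 11 and 12 bta-miR-2285af had 30, 25 and 49 counts and hcmv-miR-US25-1-3p 60, 27 and 53. No counting interval was computed for these low entries, so counting error was not set against their gaps.

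MiR-146b, which is induced by inflammatory signalling through NF-kB, was among the wholly higher entries. It stood at 242, 231 and 53.5 CPM in PPHN 8, 11 and 12 and at 7.55, 7.06 and 28.6 CPM in PPHN 7, 9 and 10. Control 4, at 86.4 CPM, was above PPHN 12, and the other controls lay at 2.91 to 31.6 CPM. The other abundant entry of the inflammation list, ipu-miR-155, overlapped between the sets, at 773, 569 and 1166 CPM against 2297, 558 and 1933 CPM. Of the 4 entries in that list, 1 was wholly higher and 0 wholly lower, beside 66 and 17 of all 470.

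Both listed entries of the miR-29 family, which represses collagens and other matrix genes, were wholly higher, beside 14.0% of all entries. The entry oar-miR-29a was at 4125, 3665 and 3596 CPM in PPHN 8, 11 and 12 against 2389.8, 1284 and 2498 CPM in PPHN 7, 9 and 10. For oar-miR-29b the values were 456, 404 and 246 CPM against 172, 100.4 and 214 CPM. In each case 1 control reached the upper level: control 2, at 4460.3 CPM for oar-miR-29a and 437 CPM for oar-miR-29b. The other controls lay lower, so the upper libraries exceeded 5 of 6 controls.

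In the endothelial list, 1 of 21 entries was wholly higher and 0 wholly lower, beside 14.0% and 3.62% of all entries. After TMM scaling the counts were 1 and 3, beside 9.79% and 8.30% of all. The one higher by column total, oar-miR-221, a regulator of vascular cell growth, stood at 5690.5, 7991 and 2770.2 CPM in PPHN 8, 11 and 12. It was at 1071, 886 and 1905 CPM in PPHN 7, 9 and 10 and at 1406 to 6339.7 CPM in the controls, where control 2 was the highest. Here PPHN 7 and 9 were the lowest of all 12 libraries. The summed level of the list was 77077 to 101155 CPM in PPHN 8, 11 and 12, 62114 to 77258 CPM in PPHN 7, 9 and 10, and 57258 to 76072 CPM in the controls. The sum leaves out mmu-miR-126b-3p, at 219.5 and 194 CPM in PPHN 8 and 11 but 20879 to 63756 CPM in PPHN 7, 9 and 10. The order of the sums therefore depends on this omission and does not rank the sets by endothelial miRNA.

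The endothelial marker miR-126 did not follow the division. The entry mmu-miR-126b-3p, which is outside the endothelial list because its name is miR-126b, was at 219.5 and 194 CPM in PPHN 8 and 11 and at 26583 CPM in PPHN 12. In PPHN 7, 9 and 10 it was at 53869, 20879 and 63756 CPM, and in the controls at 11722 to 124968 CPM apart from 199 CPM in control 2. The other arm, bta-miR-126-5p, was at 5.27 and 8 CPM in PPHN 8 and 11, 763 CPM in PPHN 12, 539.7 to 1386 CPM in PPHN 7, 9 and 10, and 9.02 CPM in control 2. PPHN 8, PPHN 11 and control 2 thus held little of the labelled cell type's defining miRNA, and PPHN 12 lay within the range of the rest. In bulk samples, fewer cells of a type and less RNA per cell cannot be told apart.

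Markers of other cell types were likewise uneven within each set. Smooth muscle entries, led by oar-miR-143, overlapped between the sets in 6 of 6 cases, beside 82.3% of all entries: oar-miR-143 was at 2433 and 2624 CPM in PPHN 8 and 11 but at 160496 CPM in PPHN 12, against 97047, 191734 and 18925 CPM in PPHN 7, 9 and 10. The summed smooth muscle level ran from 12562 to 181728 CPM, from 29215 to 198988 CPM and from 19551 to 278002 CPM in PPHN 8, 11 and 12, in PPHN 7, 9 and 10 and in controls. PPHN 12 was therefore high and PPHN 8 and 11 low. The low sums were mostly another listed entry, hsa-miR-28-3p. It was at 13979, 9739 and 16421 CPM in PPHN 8, PPHN 11 and control 2, whose sums were 16777, 12562 and 19551 CPM. All 12 fibroblast entries also overlapped, beside the same 82.3%, with sums of 2997 to 11670 CPM, 5402 to 8707 CPM and 7724 to 18108 CPM. Within them oar-miR-199a-3p was at 775, 60.9 and 3868 CPM in PPHN 8, 11 and 12, a 63.5-fold range.

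Imprinted and Hox-cluster miRNAs varied widely within the sets. Of the 48 entries in the imprinted DLK1-DIO3 list, 0 separated the sets, where 66 and 17 of all 470 did: oar-miR-127 was at 145, 8282 and 1566 CPM in PPHN 8, 11 and 12 and at 2768, 2176 and 659.6 CPM in PPHN 7, 9 and 10. PPHN 11 was the highest of the 12 libraries and PPHN 8 the lowest. The Hox-cluster entry oar-miR-10a was at 21063, 11995 and 3207 CPM against 2204, 2569.8 and 12413 CPM, so PPHN 10 was as high as PPHN 11. For oar-miR-10b PPHN 8 and 11, at 1057 and 647 CPM, were above all other libraries, while PPHN 12, at 54.8 CPM, was below PPHN 7 at 137 CPM. Epithelial oar-miR-200b, at 119, 165 and 29.5 CPM against 27.5, 68.5 and 35.2 CPM, overlapped too. Whether differences in cell makeup take part in the division was not tested.

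**Figure D4:**
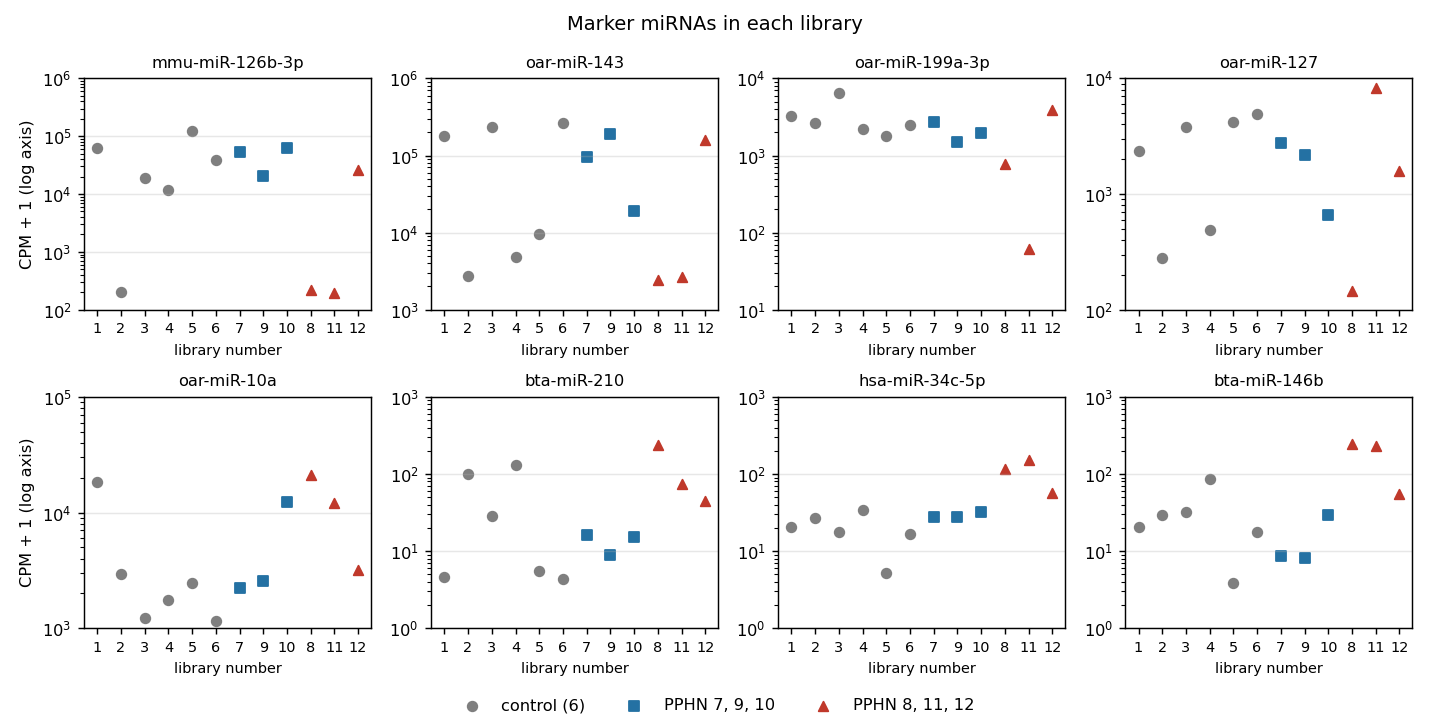
CPM + 1 on log axes for 8 entries in each library, with controls as circles, PPHN 7, 9 and 10 as squares and PPHN 8, 11 and 12 as triangles, the horizontal axes giving the library number. For miR-126 PPHN 8 and 11 lie with control 2, at 199 CPM. For miR-143 they also lie with control 2, at 2730.3 CPM, and there controls 4 and 5 are low too, at 4771 and 9576 CPM. For both PPHN 12 lies with the high libraries, while hsa-miR-34c-5p is higher in all 3 triangles.

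Entries wholly lower in PPHN 8, 11 and 12 had narrow gaps, and for 4 of the 17 (0.851% of all entries) the 3 libraries lay below all 9 others. These were bta-miR-486, ggo-miR-378a, bta-miR-378c and mmu-miR-1957a. After TMM scaling 8 entries lay below all 9 others. The red-cell miRNA bta-miR-486 was at 16.9, 30.2 and 46.5 CPM in PPHN 8, 11 and 12 and at 68.7, 47.8 and 200.4 CPM in PPHN 7, 9 and 10. Its controls lay at 50.9 to 785 CPM, so PPHN 9 was also below every control. Another red-cell miRNA, bta-miR-451, had 1, 1 and 8 counts in PPHN 8, 11 and 12 and 47, 5 and 46 in PPHN 7, 9 and 10. In CPM it was at 0.377, 0.444 and 1.66 CPM against 2.65, 0.483 and 8.93 CPM, and overlapped.

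MiR-378 lies in an intron of PPARGC1B, a co-activator of energy metabolism genes. The entry ggo-miR-378a was at 44.4, 52 and 34.2 CPM in PPHN 8, 11 and 12 against 375, 75.4 and 99.4 CPM in PPHN 7, 9 and 10, with controls at 58.9 to 765 CPM. The low entry bta-miR-378c, picked once its values were known, was at 0, 1.33 and 1.04 CPM against 9.13, 1.74 and 3.3 CPM. The first 3 values rest on 0, 3 and 5 counts, at or near the floor, and the others on 162, 18 and 17. For mmu-miR-1957a the sets nearly touched, at 8.28, 11.6 and 11.8 CPM against 13.5, 15.9 and 11.8 CPM, and after TMM scaling they overlapped.

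The widest lower gap belonged to bta-miR-2483-5p, at 4.14, 3.11 and 20.1 CPM against 77.7, 36.9 and 50.7 CPM, a gap of 1.83-fold. Its other arm, bta-miR-2483-3p, was at 7.91, 1.78 and 28.4 CPM against 102, 39.8 and 60.4 CPM. The moss-named ppt-miR1029 was ordered alike, at 5.27, 1.33 and 17 CPM against 61.1, 22.7 and 37.7 CPM. In all 3 entries PPHN 12 lay nearest to PPHN 7, 9 and 10, and the controls covered both levels. For bta-miR-2483-5p controls 2, 3 and 4 were at 1.22, 2.37 and 0 CPM and control 5 was at 322 CPM.

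The most abundant entry, oar-miR-21, a miRNA raised in proliferating and stressed cells, was wholly lower at a narrow gap. It stood at 151782, 188592 and 191069 CPM in PPHN 8, 11 and 12 and at 262915, 237765 and 221505 CPM in PPHN 7, 9 and 10, a gap of 1.16-fold. Controls lay at 146645 to 222796 CPM, so PPHN 8, 11 and 12 were within the control range and PPHN 7 and 9 above it. In control 3, 12 of the 17 lower entries lay at the level of PPHN 8, 11 and 12, against 2 in control 5. Of the other lower entries, oar-miR-25, which is encoded with its cluster in an intron of MCM7, was at 21.8, 18.2 and 21.6 CPM against 22.5, 22.5 and 28.7 CPM, with 5 of 6 controls above all 6 PPHN libraries.

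**Figure D5:**
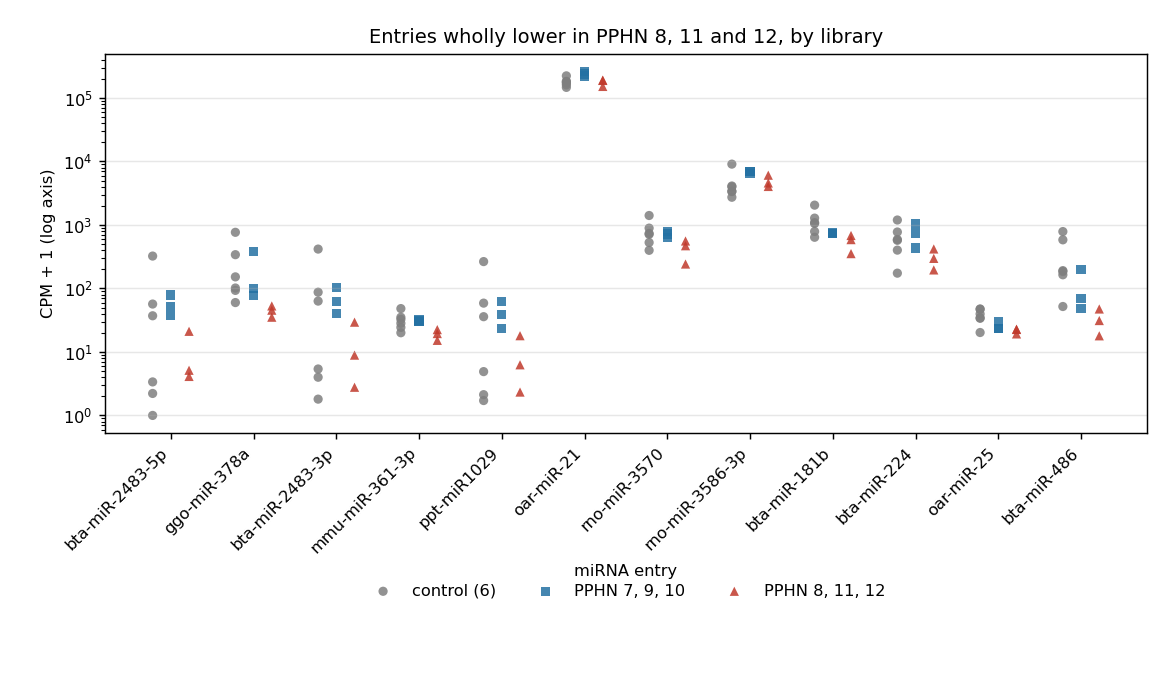
CPM + 1 on a log axis for the 12 entries with the largest gap in favour of PPHN 7, 9 and 10 (squares), with PPHN 8, 11 and 12 as triangles and the 6 controls as circles, 1 point per library. Gaps are narrow, 1.83-fold at most, and the controls of bta-miR-2483-5p range from 0 to 322 CPM.

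The other lists are read beside the share over all entries, 14.0% higher and 3.62% lower by column total and 9.79% and 8.30% after TMM scaling. The miR-17-92 cluster and its paralogues, which are linked to proliferation, had 0 higher and 1 lower of 20 entries, and after TMM scaling 0 and 4. The let-7 family had 0 and 0 of 12 by column total and 0 and 2 after TMM scaling. In the list of miRNAs linked to pulmonary hypertension, 1 entry was higher and 1 lower of 11, the lower being oar-miR-21, and after TMM scaling 1 and 2. A member that overlapped, bta-miR-204, was at 815, 647 and 2866 CPM against 1018, 2193 and 3407 CPM. The ruminant miR-2284 and miR-2285 families had 2 higher and 1 lower of 26, and after TMM scaling 1 and 1. The miR-30 family had 1 higher of 7, the miR-181 family 1 lower of 4 and the miR-15 and miR-16 family neither among 9. After TMM scaling the miR-30 family had 0 higher and 1 lower, the miR-181 family 0 lower and the miR-15 and miR-16 family 2 lower. By column total 1 of 2 red-cell entries was lower, and the Hox-cluster and epithelial lists, with 4 and 2 entries, overlapped throughout.

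The comparison that the study's labels define, 6 PPHN against 6 control libraries, was tested with edgeR's quasi-likelihood test over 468 entries with Benjamini-Hochberg adjustment. No entry passed at 0.05 (0%), the lowest adjusted value being 0.190. Before adjustment, 23 entries (4.91%) were higher in PPHN and 26 (5.56%) lower with a p under 0.05. DESeq2 called 12 of 468 entries (2.56%) and limma-voom 0. Log2 fold changes were above 0 for 213 of 468 entries (45.5%).

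All 16 entries in which PPHN 8, 11 and 12 stood above the other 9 had a log2 fold change above 0 against control, beside 213 of all 468 tested. In edgeR 11 of them had an unadjusted p under 0.05, beside 23 of all 468 that were higher at that level. The choice of these entries on the same libraries sets this direction and favours low p-values, so neither count supports anything further. The estimate for gga-miR-1692 was 1.87 ± 0.55 (log2, SE; n = 6 and 6; edgeR adjusted p = 0.315). For bta-miR-2340 it was 2.87 ± 0.95 (edgeR adjusted p = 0.340), for hsa-miR-4448 2.35 ± 0.84 (0.382) and for hsa-miR-34c-5p 1.81 ± 0.54 (0.315). None of these differences passed the threshold in edgeR. DESeq2 called 4 of the 16, beside 12 of all 468. These were cgr-miR-874, gga-miR-1692, hsa-miR-34c-5p and bta-miR-2340, at adjusted p of 0.00307, 0.0251, 0.0251 and 0.0290. The p-values of both tools rest on the same values that chose the entries, so they lend the division no support.

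Without PPHN 8, 11 and 12 the comparison of the remaining 3 PPHN libraries with the 6 controls gave 171 of 470 log2 fold changes above 0 (36.4%), and no entry passed (0%; lowest adjusted p 0.417). There 12 entries were higher and 13 lower at an unadjusted p under 0.05. Of the 16 entries, 5 then had a log2 fold change above 0 and 11 below 0. The estimates were 0.08 for gga-miR-1692, −0.023 for ssc-miR-1285, −0.37 for bta-miR-2340, −1.79 for hhi-miR-7641 and −1.99 for mmu-miR-5112, none of which passed. The values for hsa-miR-34c-5p and cgr-miR-874 were 0.75 and 0.83.

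Among the 17 lower entries, 13 had a log2 fold change below 0 over all 12 libraries, beside 255 of all 468 tested. Their choice by low values in PPHN 8, 11 and 12 favours this direction, so the count supports nothing further. The estimate for bta-miR-486 was −2.16 ± 0.73 (log2, SE; edgeR adjusted p = 0.340) and −1.52 without PPHN 8, 11 and 12. For oar-miR-25 it was −0.53 ± 0.22 (edgeR adjusted p = 0.430) and −0.32 without them. The abundant oar-miR-21 went the other way, at 0.34 ± 0.21 (edgeR adjusted p = 0.591) and 0.64 without PPHN 8, 11 and 12. None passed the threshold in either fit.

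A further 3 entries, picked once their values were known, had other layouts. The entry oar-miR-30b was at 329.8, 335 and 324 CPM in PPHN 8, 11 and 12, at 309.7, 239 and 316 CPM in PPHN 7, 9 and 10, and at 391.7 to 524 CPM in the controls. All 6 controls were above all 6 PPHN libraries, with a log2 fold change of −0.49 ± 0.14 (edgeR adjusted p = 0.315). DESeq2 called it, at an adjusted p of 0.000317. After TMM scaling the PPHN sets overlapped. For oar-miR-26a, at 27280.5, 27553 and 22134 CPM against 19980.0, 18517 and 22041 CPM, the gap was near nil, and it overlapped after TMM scaling. The near-identical entry bta-miR-26c had almost the same counts, with a ratio of totals of 1.07. For bta-miR-1246, whose human namesake matches U2 small nuclear RNA, the values were 55.7, 119 and 57.1 CPM against 35.6, 17.2 and 14.4 CPM, and control 6 reached 235 CPM.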

How the data were processed

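Small RNA was sequenced from 6 control and 6 PPHN libraries prepared, per the labels' protocols, with TruSeq small RNA reagents. The authors deposited raw read counts for 470 miRNA entries, per the file headers, and 149 entries join several names. The submitters' processing notes name Trim Galore 0.2.5 and Bowtie 1.1.1. Their roles and settings, the miRNA reference and the genome build were not given in the sources used here. Totals cover the listed entries only and are not sequencing depth. The deposited p-values and fold changes were not used, and no sequences or coordinates are printed.

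CPM was computed from column totals. A pseudocount of 1 CPM was added to rank gaps and for the pair distances, the median log2 differences, Pearson's r and the log axes. The printed gap folds have none. The PPHN sets were cut at 100 CPM of gga-miR-1692. PPHN was compared with control in edgeR 4.0.16 (R 4.3.3; filterByExpr, TMM, robust quasi-likelihood fit, Benjamini-Hochberg adjustment), with the SE taken from the fold change and its F statistic. The common biological coefficient of variation was 0.730. Alternatives were DESeq2 1.42.0, scaling by RLE or by the upper quartile, limma-voom (limma 3.58.1), no filter, at least 10 CPM in at least 6 libraries, each library left out, and PPHN 8, 11 and 12 left out together. Leaving out control 2, PPHN 8 and PPHN 11 together, and a column total without bta-miR-2340, were added after seeing the data. The edgeR fit was run on simulated counts with known fold changes, at a spread below that of these libraries and at their own dispersions. The share recovered is not given here, so the power behind the absence of calls is not shown. A chi-square comparison of every pair of libraries gave at least 364 per degree of freedom, so no library was counted as a duplicate. The labels do not say that libraries are separate lambs, so p-values measure only the spread between these libraries, which may be partly technical.

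The members and the 18 lists were chosen with earlier results of these data known. Named entries are the 3 markers, the 12 with the largest gap each way and at least 10 CPM in every library of the upper set, the 5 most like gga-miR-1692, the 5 most abundant over PPHN, the 2 most abundant of each list and any that pass the threshold. A further 15 entries were chosen after their values were seen: cgr-miR-874, hsa-miR-34c-5p, hsa-miR-1303, bta-miR-2285af, hsa-miR-1273g-3p, hcmv-miR-US25-1-3p, mmu-miR-1957a, bta-miR-378c, both arms of miR-126, oar-miR-221, oar-miR-26a, oar-miR-30b, oar-miR-199a-3p and bta-miR-1246.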

Additional observations from a re-analysis of the deposited data

Results flagged for a closer look

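Among 144 groups of 6 libraries, 1 for each of the 72 named entries in each group, 24 held a library far from the other 5 by Dixon's test. Chance gives about 5% of groups when values are normal. The values tested are CPM without logs, and many of the entries were chosen by their values in these libraries. No excess is read from the count. All values here are CPM by column total. PPHN 8 stood apart for rno-miR-3574 at 1357 (others 43.9 to 384), bta-miR-210 at 236 (7.93 to 73.3), mmu-miR-210-5p at 209 (8.41 to 49.6), mmu-miR-6238 at 59.5 (5.41 to 20.5) and hsa-miR-1273g-3p at 256 (14.5 to 86.2). PPHN 11 did so for oar-miR-127 at 8282 (145 to 2768).

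On the other side of the division, PPHN 7 stood apart for ggo-miR-378a at 375 (34.2 to 99.4) and for bta-miR-378c at 9.13 (0 to 3.3). PPHN 10 did so for the red-cell miRNAs bta-miR-486 at 200.4 (16.9 to 68.7) and bta-miR-451 at 8.93 (0.377 to 2.65). PPHN 9 was low for oar-miR-30b at 239 (309.7 to 335).

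In the controls, control 5 was highest for bta-miR-2483-5p at 322 (0 to 55.8), bta-miR-2483-3p at 416 (0.806 to 86.2), ppt-miR1029 at 264 (0.716 to 57.7), rno-miR-3586-3p at 9071 (2729 to 4102), oar-miR-16b at 9939 (5531 to 6597) and ipu-miR-155 at 5192 (978 to 2361). Control 1 stood apart for oar-miR-10a at 18495 (1161 to 2914) and oar-miR-10b at 186 (4 to 31.9). Control 2 did so for oar-miR-29b at 437 (75.4 to 190.4), and control 3 for oar-miR-199a-3p at 6495 (1792 to 3293). Control 4 stood apart for bta-miR-146b at 86.4 (2.91 to 31.6) and oar-miR-200b at 440.4 (0 to 5.85), and control 6 for bta-miR-1246 at 235 (12.7 to 71.8).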

How the results depend on the processing

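No paired analysis was possible because control and PPHN libraries share no replicate numbers. DESeq2 called 12 entries in PPHN against control and had 36 higher entries at an unadjusted p under 0.05. Without PPHN 8, 11 and 12 there were 12 higher and 13 lower at that level, without control 2, PPHN 8 and PPHN 11 there were 11 and 16, and with at least 10 CPM in at least 6 libraries 14 were lower. Leaving out each library in turn gave 0 to 1 passing entries (1 without PPHN 8), 13 to 27 higher and 18 to 36 lower at an unadjusted p under 0.05. Requiring a gap of at least 1.5-fold left 24 entries wholly higher and 1 wholly lower. TMM and RLE scaling each gave 39 wholly lower and 8 below all 9 other libraries. Leaving out each PPHN library gave 68 to 137 wholly higher, 20 to 70 wholly lower, 16 to 39 above and 4 to 32 below all others. The most entries were wholly higher without PPHN 10 or PPHN 12 (137 each) and wholly lower without PPHN 12 (70.0, against 57 without PPHN 9). A set with 1 library fewer separates more easily by construction.

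Without PPHN 8, 11 and 12 the log2 fold change against control turned to −0.023 for ssc-miR-1285, −0.37 for bta-miR-2340, −1.99 for mmu-miR-5112, −1.79 for hhi-miR-7641, −0.82 for hsa-miR-4448, −0.36 for hsa-miR-7641, −0.66 for prd-miR-5960-5p, −0.52 for cgr-miR-1285, −1.74 for rno-miR-3574, −1.61 for bta-miR-210, −0.44 for mmu-miR-6238, −0.15 for hsa-miR-1273g-3p and −0.20 for hcmv-miR-US25-1-3p. It turned to 0.042 for bta-miR-2483-5p, 0.23 for mmu-miR-361-3p, 0.14 for rno-miR-3570 and 0.49 for bta-miR-224. With limma-voom it was −1.91 for mmu-miR-5112, −1.24 for prd-miR-5960-5p, 1.99 for bta-miR-2483-5p, 0.73 for bta-miR-2483-3p and 0.75 for ppt-miR1029. Without control 2, PPHN 8 and PPHN 11 it was −0.73 for rno-miR-3574, −0.64 for bta-miR-210, 0.030 for mmu-miR-361-3p and 0.25 for bta-miR-224, which was 0.045 under the filter of 10 CPM. Leaving out each library gave −0.62 to 1.02 for rno-miR-3574, −0.44 to 1.24 for bta-miR-210, −1.32 to 0.80 for bta-miR-2483-5p, −1.54 to 0.40 for bta-miR-2483-3p, −1.60 to 0.35 for ppt-miR1029 and −0.39 to 0.16 for bta-miR-224. The cause of these reversals was not tested. None of these estimates passed the threshold in edgeR over all libraries.

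The floor of 3 counts lies highest in PPHN 11, at 1.33 CPM. The other 593 comparisons of single entries under an alternative kept their direction and their side of the threshold.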
